A study of Homo sapiens with 9 samples.

Results

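The duplicated chromosome 15 segment of HAP1 is the stretch of chromosome 15 from base 60800000 to base 89400000 (hg38), and 202 of the 331 gene models that start in it were described here, out of 26485 gene models in all. For the choice of members and the borders, the start of a gene was its lowest coordinate on either strand. The members were chosen by position and by a measured value, a mean of at least 1 count per 1000000 (CPM) over the 6 libraries of 10, 100 and 1000 cells, and 129 gene models of the segment fell under that limit. They were set against the 259 of 574 gene models on the rest of chromosome 15 that reached the same limit, and against all 13370 such genes. A further 7 genes lie inside the segment but also have coordinates on alternate contigs that take their lowest start out of the limits, and they were kept out of both sides.

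HAP1 cells grow attached, are near-haploid and descend from KBM-7, a line of human chronic myeloid leukaemia. Most of their chromosomes are present as a single copy, but a stretch of chromosome 15 is known to be carried a second time, inserted in chromosome 19. Genes on such a stretch have an additional template for transcription, while mature RNA level also depends on each gene's promoter and on RNA decay.

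The cells were wild type and untreated, all from the same line, and were sorted into lysis buffer as 1 cell (3 libraries), 10 cells (2), 100 cells (2) or 1000 cells (2). Total RNA was isolated with NAxtra magnetic beads, treated with DNase and made into SMART-Seq Stranded libraries, and each library held between 42842970 and 61645865 counts. The labels call the replicates biological but do not say that they came from separate cultures, so p-values measure the spread between these libraries, which may in part be technical. No DNA sequence and no HAP1 line without the extra copy was analysed here, so the number of copies of the segment was not measured in these cells. In libraries of 10 or more cells, fewer cells holding a transcript and less of it per cell cannot be told apart. The HAP1 markers PEG10 (3235 to 3883 CPM), POU5F1 (265 to 797 CPM) and LIN28B (137 to 227 CPM) were found in every library, BCR and ABL1 were at 4.56 to 25.9 and 5.74 to 20.3 CPM, and SALL4 was low (0 to 5.17 CPM). Of the markers of other cell types, SDC1 of plasma cells (42.6 to 61.8 CPM) and COL1A1 of fibroblasts (3.76 to 16.8 CPM) were found in every library, while the other 2 plasma cell and 4 fibroblast markers stayed at or under 0.271 CPM. Furthermore, 5 of the 6 blood cell markers stayed at or under 0.157 CPM in each library and the remaining marker, SPN, reached 0.553 CPM. The keratinocyte markers KRT5, KRT14 and KRT1 were at 0 throughout. Of the segment genes, 14.9% were more than 1 lower (log2) in Single Cell Rep 3 than in the libraries of more cells. The share was 10.4% in each of the other single cells. Over all genes of at least 1 CPM it was 12.7%, 13.5% and 17.6% in Single Cell Rep 1, 2 and 3. More than 1 higher were 8.42%, 3.96% and 8.42% of the segment genes, and 7.85%, 6.66% and 9.36% of all these genes.

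In the median, segment genes were expressed at a higher level than genes elsewhere on the chromosome. Their median over the 6 libraries of more cells was 31.2 TPM (counts per exon length, scaled to 1000000 in each library; quartiles 10.4 and 73.8), compared with 12.8 TPM (4.80 and 34.5) on the rest of chromosome 15 and 17.9 TPM over all 13370 genes, a ratio of 2.44 to the rest of the chromosome and 1.74 to all genes. The difference in log2 TPM from the rest of the chromosome was 1.28, and it lay between 1.18 and 1.42 in each of the 9 libraries, single cells included. The single cells, which the choice of members did not use, gave median levels of 32.5, 28.4 and 30.2 TPM for the segment and 13.9, 12.5 and 12.9 TPM for the rest of chromosome 15. The median of the segment was above that of each of the 21 other autosomes (14.6 TPM for chromosome 19 to 23.4 TPM for chromosome 20), while that of the rest of chromosome 15 was below all of them. These medians are descriptions, and no test was made, since genes of a chromosome are not replicates.

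The gap was smaller without division by length. Segment genes were shorter, with a median exon length of 2862 bases compared with 4047 on the rest of chromosome 15 and 3309 over all genes. Without that division the median levels were 40.3 and 25.7 CPM, a log2 difference of 0.646, and the segment was still above the highest autosome (37.2 CPM, chromosome 18). At least 100 CPM was reached by 61 segment genes (30.2%), 46 genes on the rest of the chromosome (17.8%) and 17.6% of all genes. Among protein-coding genes (172 in the segment, 225 on the rest of the chromosome) the medians were 34.9 and 14.8 TPM, and those of the other autosomes ran from 15.2 to 23.0 TPM. A larger share of the segment's gene models was expressed as well, 61.0% compared with 45.1% on the rest of the chromosome and 50.5% overall. The segment took 2.14 to 2.26% of the counts of every library.

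**Figure D1:**
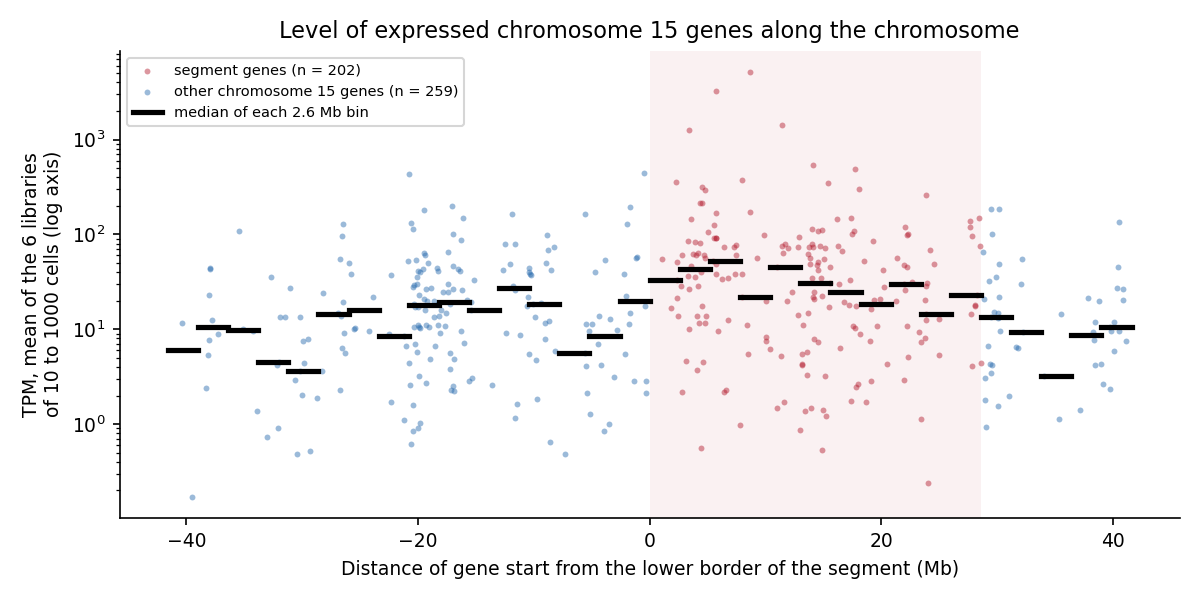
Level of chromosome 15 genes of at least 1 CPM (points; TPM, log axis) by the distance of their start from the lower border of the segment, with the median of each 2.6 Mb bin (black lines); the segment is shaded. Bin medians inside the segment ran from 14.6 to 52.7 TPM, and those of the 10 Mb outside its borders pooled to 11.5 and 10.7 TPM.

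**Figure D2:**
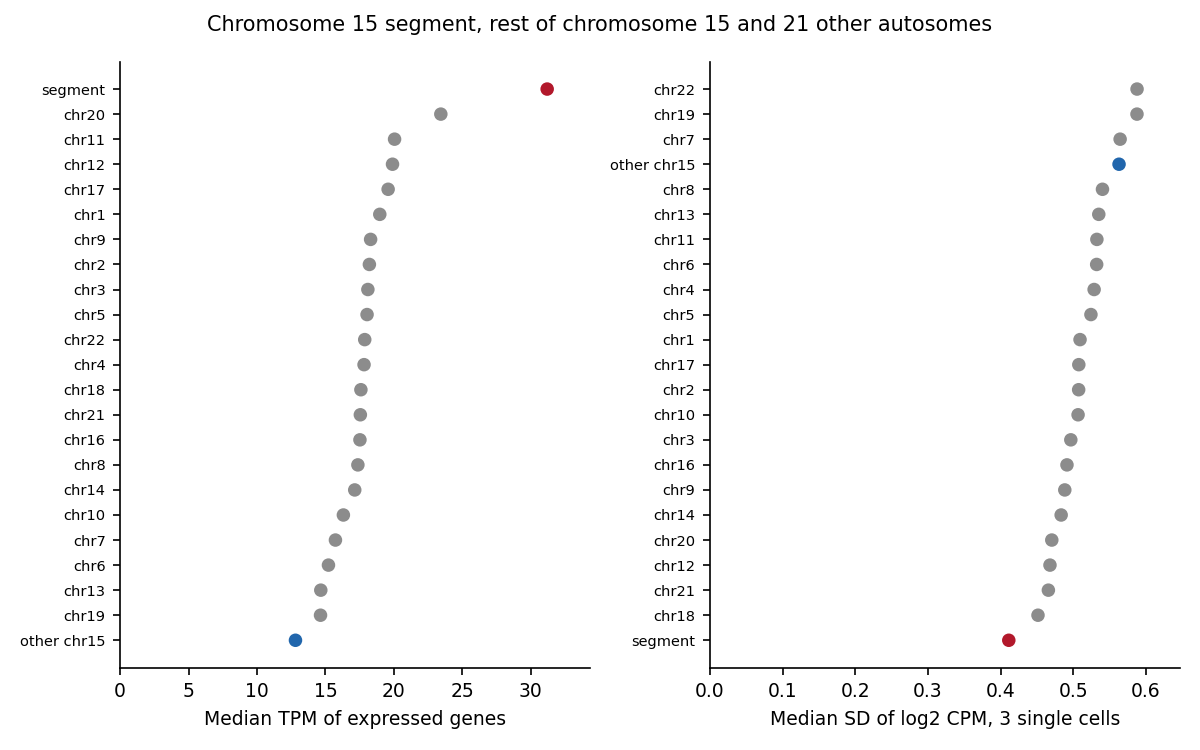
Median TPM over the 6 libraries of 10 to 1000 cells (left) and median SD of log2 CPM among the 3 single cells (right) for the segment (red), the rest of chromosome 15 (blue) and the 21 other autosomes (grey), each over genes of at least 1 CPM. The segment has the highest median level (31.2 TPM) and the lowest median SD (0.411).

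The level differed between the sides of each border and along the segment. Below the lower border, the 47 expressed genes of the last 10 Mb outside had a median of 11.5 TPM, and the 71 genes of the first 10 Mb inside had 48.6 TPM, a ratio of 4.23. At the upper border, the 50 genes of the last 10 Mb inside had a median of 20.2 TPM and the 38 genes of the next 10 Mb outside had 10.7 TPM, a ratio of 1.89. In the plot of level along the chromosome, the highest bin median inside (52.7 TPM, 21 genes) lay 5.2 to 7.8 Mb from the lower border and the lowest (14.6 TPM, 13 genes) 23.4 to 26 Mb from it. The quartiles inside and outside overlapped at both borders, and a bin outside reached 27.5 TPM.

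The genes at the borders showed the range of levels on each side. Inside the lower border, VPS13C, which encodes a lipid transfer protein, had 54.9 TPM, TLN2, a talin of focal adhesions, 16.9 TPM, and TPM1, a tropomyosin, 358 TPM. Outside it by lowest coordinate, RORA, an orphan nuclear receptor, had 2.14 TPM, its antisense gene RORA-AS1 2.88 TPM and ICE2, of the little elongation complex, 17.5 TPM. For RORA, on the minus strand from base 60488284 to base 61229303, the end where transcription begins lies inside the segment. Inside the upper border, the replication and repair genes POLG and FANCI had 76.3 and 148 TPM and the non-coding LINC00925 4.37 TPM, whereas outside it the replication factor TICRR had 65.7 TPM, the kinesin gene KIF7 20.7 TPM and the transcription factor gene MESP1 1.77 TPM. At the limit of the choice, CILP, SNORD18C and ALPK3 lay just inside with means of 1.22, 1.24 and 1.26 CPM, and C2CD4A, AP3B2 and SCARNA14 just outside with 0.975, 0.872 and 0.867 CPM.

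The 10 members of highest level came from several pathways. The ribosomal protein genes RPLP1 and RPL4 had 5153 and 3216 TPM, PKM, the pyruvate kinase of glycolysis, 1406 TPM, PPIB, a prolyl isomerase of the endoplasmic reticulum, 1260 TPM, COX5A, a subunit of cytochrome c oxidase, 535 TPM, and PSMA4, a subunit of the proteasome, 488 TPM. ANP32A, a histone-binding nuclear protein gene, TPM1, the electron transfer gene ETFA and the spliceosomal RNA gene RNU5A-1 followed at 374, 358, 346 and 319 TPM. RNU5A-1 is 117 bases long and has near-identical copies, and RPLP1 and RPL4 have processed pseudogenes, so their counts are uncertain because reads mapping to several places were left out. RPLP1 had 1248, 1369 and 1302 CPM in the single cells, and 1128, 1287 and 1385 CPM as the lowest, median and highest of the 6 libraries of more cells. PKM had 2105, 2277 and 2103 CPM in the single cells, and 2030, 2146 and 2307 CPM in the others. For both genes every single cell lay within the range of the larger libraries, and neither passed the test described below (adjusted p 0.826 and 0.989, edgeR).

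In the median, single cells differed less from each other in segment genes than in genes elsewhere, a description without a test. The spread of a gene was taken as the SD of its log2 CPM (prior count 2, scaled by TMM) among the 3 single cells. Its median was 0.411 for the segment, 0.563 for the rest of chromosome 15 and 0.516 for all genes, and the other autosomes ranged from 0.452 (chromosome 18) to 0.588 (chromosome 22), so the segment had the lowest median. In the pairs of libraries of 10, 100 and 1000 cells, the median SD of the segment genes over all levels was 0.123, 0.124 and 0.0467, compared with 0.142, 0.130 and 0.0564 on the rest of the chromosome. The difference of -0.152 from the rest of chromosome 15 was -0.101 without Single Cell Rep 3, -0.125 without Single Cell Rep 2 and -0.0691 without Single Cell Rep 1.

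The spread fell with level, and segment genes are higher in level. Among genes of 1 to 10 CPM, the median SD was 1.49 in the segment (53 genes), 1.89 on the rest of the chromosome (77) and 1.62 over all genes. From 10 to 100 CPM it was 0.426 (88 genes), 0.499 (136) and 0.474, and from 100 CPM it was 0.219 (61 genes), 0.231 (46) and 0.228. Over the 3 cells the difference had the same sign in each range but was small beside the quartiles of the segment genes, which were 0.292 and 0.643 from 10 to 100 CPM. The order turned in some pairs of cells. Between Single Cell Rep 1 and Rep 2 the segment had the higher median SD at 10 to 100 CPM (0.338 against 0.334 on the rest of the chromosome) and from 100 CPM (0.162 against 0.148), and between Single Cell Rep 2 and Rep 3 from 100 CPM (0.225 against 0.196). With a limit of 10 CPM for members, the difference from the rest of the chromosome was -0.0629. In the pairs of 10, 100 and 1000 cells, the order of the median SD within ranges of level was mixed. The segment had 0.322, 0.308 and 0.129 at 1 to 10 CPM, compared with 0.314, 0.299 and 0.1545 on the rest of the chromosome. From 10 to 100 CPM these were 0.1355, 0.102 and 0.0516, compared with 0.124, 0.112 and 0.0538. From 100 CPM they were 0.0628, 0.0553 and 0.02565, compared with 0.0741, 0.0522 and 0.0233. The part of level in the lower spread was not tested further.

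**Figure D3:**
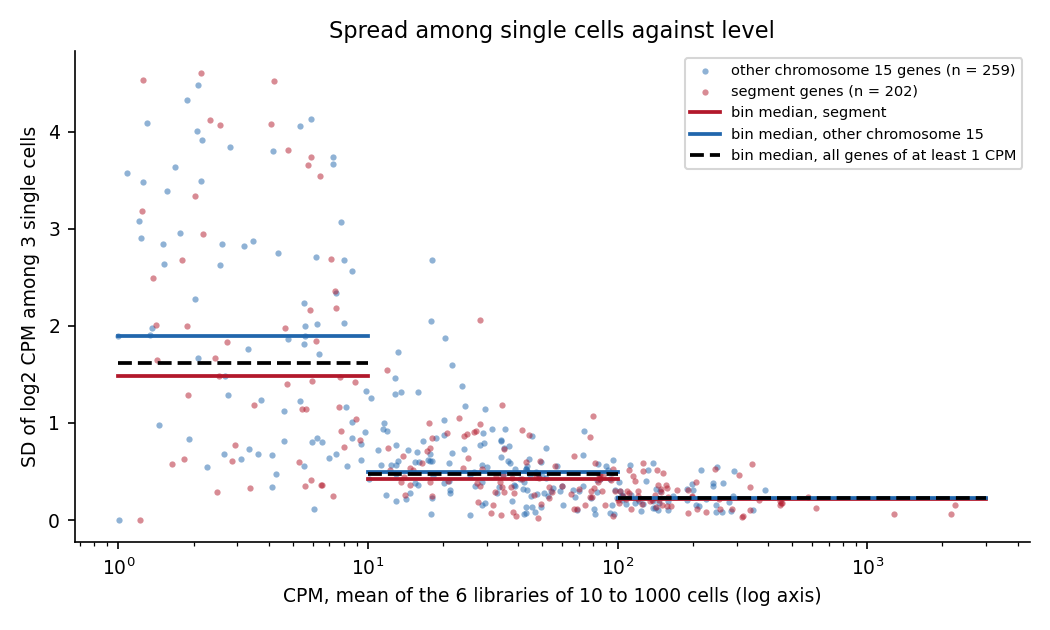
SD of log2 CPM among the 3 single cells against the mean CPM of the 6 libraries of 10 to 1000 cells (log axis) for segment genes (red) and other chromosome 15 genes (blue), with medians of each range of level as lines, dashed for all genes of at least 1 CPM. The medians of the segment fall from 1.49 to 0.219 with level and lie close to the others from 100 CPM.

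Among members of at least 10 CPM, RPP25, a subunit of ribonuclease P, varied most between single cells, and WHAMM, a nucleator of actin filaments, varied least. RPP25 had 58.2, 5.13 and 65.3 CPM in the single cells and 26.4, 27.6 and 32.3 CPM as the lowest, median and highest of the other libraries. Single Cell Rep 2 was thus below all other libraries and the remaining cells above all of them. WHAMM had 50.2, 48.9 and 49.0 CPM in the single cells, within the 40.2 to 55.3 CPM of the others. The SD was 2.07 for RPP25 and 0.0214 for WHAMM on the log2 scale.

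The next most variable members were high or low in different cells. The non-coding UBL7-AS1 had 8.11, 29.4 and 3.45 CPM in the single cells and was highest in Single Cell Rep 2. ARNT2, a bHLH-PAS transcription factor gene, had 71.7, 14.5 and 45.5 CPM and was lowest in that cell. PIF1, a DNA helicase gene, had 65.4, 33.1 and 146 CPM, and KLHL25, an adaptor of a ubiquitin ligase, had 28.0, 17.2 and 72.6 CPM, with Single Cell Rep 3 highest for both. APH1B, of the gamma-secretase complex, was also highest in Single Cell Rep 3 (13.9, 30.1 and 54.7 CPM). NPTN-IT1, transcribed from within NPTN, PML, which organises nuclear bodies, GLCE, an enzyme of heparan sulphate synthesis, and RPS27L, a ribosomal protein paralogue, were instead lowest there, at 9.87, 17.2, 11.4 and 13.6 CPM. The steadiest members after WHAMM were the chromatin gene MORF4L1 (285, 273 and 274 CPM), the ADP-dependent glucokinase gene ADPGK (104, 104 and 99.2 CPM), the mitochondrial LACTB (38.9, 38.6 and 36.8 CPM) and AKAP13, an anchor of protein kinase A (425, 432 and 450 CPM).

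Of the 202 members, 13 (6.44%) had 0 counts in at least 1 single cell, compared with 6.95% on the rest of the chromosome and 7.35% of all genes. Every member had counts in each of the 6 other libraries, but the choice of members by their level there nearly fixed this. Of all genes chosen in this way, only 7 were at 0 in 10 Cell Rep 1. All 13 had a mean under 10 CPM in the 6 other libraries. CSPG4, a cell surface proteoglycan gene, had 13.4, 0 and 0.0383 CPM in the single cells, the nicotinic receptor gene CHRNA3 had 10.2, 7.64 and 0 CPM, and the retinoic acid binding gene CRABP1 had 5.66, 4.84 and 0 CPM. ALPK3, an alpha kinase gene, had 2.03, 0 and 19.5 CPM. CSPG4 and CRABP1 were chosen after their values had been seen. A count of 0 allows up to 3 counts, and over the 3 single cells together 0.0192 CPM, which covers counting error only.

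Promoters of 4 members are printed as examples, the most variable member, a steady one, and the variable and the lower member with the fewest CpG dinucleotides. They run from 250 bases before to 50 after the start in RefSeq (GRCh38.p14), on the strand of the gene, with each CpG dinucleotide in capitals. RPP25 (chr15:74956723-74957022, minus strand) and MORF4L1 (chr15:78872640-78872939, plus strand) each hold 33 CpG, although the first was the most variable and the second among the steadiest. NPTN-IT1 (chr15:73569494-73569793, minus strand), which starts within NPTN, and LINC00597 (chr15:77225355-77225654, minus strand), a non-coding gene that was lower in single cells, hold 1 CpG each. Most starts were richer, with 14 to 33 CpG in 6 of the 7 variable members found in RefSeq, 23 to 33 in all 4 of the steadiest found there, and 15 to 39 in 7 of the 10 lower ones. The other 2 lower members, CILP and CORO2B, hold 5 each.
RPP25: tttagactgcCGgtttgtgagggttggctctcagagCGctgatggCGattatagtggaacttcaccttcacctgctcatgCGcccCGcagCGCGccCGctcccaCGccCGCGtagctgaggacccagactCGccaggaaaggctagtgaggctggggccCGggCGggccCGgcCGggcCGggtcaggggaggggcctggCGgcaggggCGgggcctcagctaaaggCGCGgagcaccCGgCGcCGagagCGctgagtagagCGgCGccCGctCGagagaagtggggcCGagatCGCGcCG
MORF4L1: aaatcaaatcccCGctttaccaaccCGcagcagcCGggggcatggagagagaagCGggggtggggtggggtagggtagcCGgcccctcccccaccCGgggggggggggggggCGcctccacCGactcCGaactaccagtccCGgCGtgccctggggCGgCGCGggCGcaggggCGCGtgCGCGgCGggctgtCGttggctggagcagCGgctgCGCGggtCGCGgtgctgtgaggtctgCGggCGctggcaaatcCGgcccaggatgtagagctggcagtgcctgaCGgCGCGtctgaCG
NPTN-IT1: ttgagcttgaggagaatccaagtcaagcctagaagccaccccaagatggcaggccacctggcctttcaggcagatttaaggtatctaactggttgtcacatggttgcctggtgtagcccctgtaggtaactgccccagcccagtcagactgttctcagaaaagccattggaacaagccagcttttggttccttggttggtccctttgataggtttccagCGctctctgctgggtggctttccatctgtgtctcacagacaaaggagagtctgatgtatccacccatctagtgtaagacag
LINC00597: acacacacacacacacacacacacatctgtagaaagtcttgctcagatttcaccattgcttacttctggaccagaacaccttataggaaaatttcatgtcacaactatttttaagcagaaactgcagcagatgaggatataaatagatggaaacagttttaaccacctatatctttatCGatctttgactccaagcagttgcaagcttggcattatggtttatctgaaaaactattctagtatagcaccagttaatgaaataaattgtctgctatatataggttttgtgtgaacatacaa

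Promoters were found for 168 of the 202 members, with a median of 28 CpG, compared with 26 on the rest of the chromosome (211 genes), 27 over all expressed genes and 14 over all 27305 promoters in the table. The letters TATAAA, on either strand, occurred in 10 members (5.95%), 3.79% of the genes on the rest of the chromosome, 5.38% of expressed genes and 11.9% of all promoters, and LINC00597 and UBL7-AS1 (UBL7-DT in RefSeq) were among the members. CCAAT, on either strand, occurred in 55 members (32.7%), 41.2%, 37.4% and 35.7%. The 10 members with TATAAA had a median SD among single cells of 1.02 and a median level of 9.83 CPM, compared with 0.407 and 51.2 CPM for the 158 without it. Among members of at least 10 CPM the medians were 0.211 (5 genes) and 0.337 (124 genes), so the order was opposite there. These matches are descriptions of the windows and no test was made.

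The segment as a whole kept its level in the single cells to within the range of the other autosomes. The median log2 difference of segment genes from the mean of the 6 libraries of more cells was -0.04 in Single Cell Rep 1, -0.02 in Single Cell Rep 2 and -0.08 in Single Cell Rep 3. For the rest of chromosome 15 it was -0.07, -0.12 and -0.10, and over all genes -0.02, -0.02 and -0.04. The other autosomes ran from -0.20 (chromosome 11) to 0.18 (chromosome 19) in the first cell, from -0.14 (chromosome 5) to 0.07 (chromosome 16) in the second and from -0.12 (chromosome 5) to 0.13 (chromosome 19) in the third. The interquartile range of single genes in the segment, from -0.64 to 0.41 in Single Cell Rep 3, was far wider than these medians.

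Within the segment, neighbouring bins moved in different directions. In Single Cell Rep 3 the bin medians ran from -0.47 (15 genes, 20.8 to 23.4 Mb from the lower border) to 0.51 (12 genes, 18.2 to 20.8 Mb), and the 13 genes at 23.4 to 26 Mb were higher in all 3 single cells, at 0.28, 0.26 and 0.48. The 21 genes at 5.2 to 7.8 Mb had -0.24 in both Single Cell Rep 1 and Single Cell Rep 2 and 0.08 in Single Cell Rep 3. With 7 to 41 genes in a bin, these medians rest on few genes and were not tested.

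**Figure D4:**
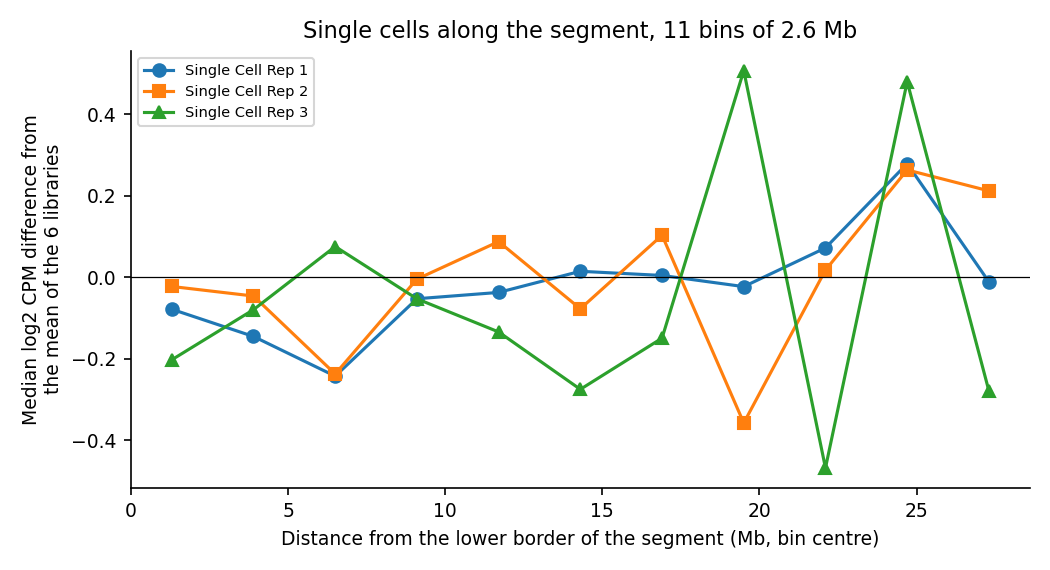
Median log2 CPM difference of each single cell from the mean of the 6 libraries of more cells, in 11 bins of 2.6 Mb along the segment, by distance of the bin centre from the lower border. Bin medians of Single Cell Rep 3 run from -0.47 to 0.51, and the bin at 23.4 to 26 Mb is above 0 in all 3 cells.

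Single cells were then compared with the 6 libraries of 10, 100 and 1000 cells by edgeR's quasi-likelihood test over all genes, to learn which segment genes a single cell gave at another level. The test took 1 spread per gene for both groups. The median SD of segment genes was 0.411 among single cells, but 0.123, 0.124 and 0.0467 in the pairs of 10, 100 and 1000 cells. The SE and adjusted p may therefore understate the spread among single cells. At an adjusted p under 0.05, 4 members (1.98%) were higher and 10 (4.95%) lower, compared with 7 and 10 of the 259 genes on the rest of the chromosome. The 10 lower members include CILP, CORO2B and LINC00597, which are members only through the libraries of more cells. The share of lower members is thus not independent of the choice. Among members of at least 10 CPM, 4 were higher and 7 lower. Of the 13370 genes of at least 1 CPM, 2.54% were higher and 3.04% lower, and of all 15603 genes tested 2.22% and 4.45%. Beside genes of at least 1 CPM, the share of the segment was lower for genes that rose and higher for genes that fell. These differences rest on few members and were not tested. The median log2 fold change of the 202 members was 0.02, compared with 0.03 over genes of at least 1 CPM. These calls depended on single libraries, since no member was called in either direction without 100 Cell Rep 2, without 1000 Cell Rep 1 or without 1000 Cell Rep 2, 1 or 2 were higher and 4 or 5 lower without 10 Cell Rep 1, 10 Cell Rep 2 or 100 Cell Rep 1, and 12 to 20 were higher and 19 to 25 lower without any single cell in turn. Over all genes the calls without a single cell numbered 964 to 1365 higher and 1442 to 1823 lower, and there were none without 100 Cell Rep 2 or either library of 1000 cells. With a separate mean for each of the 4 cell numbers, and 1 cell set against the average of the other means, no gene was called.

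The 4 members that rose act in kinase signalling, vesicle formation and ubiquitin transfer. AKAP13 had 425, 432 and 450 CPM in the single cells, compared with 308, 320 and 329 CPM as the lowest, median and highest of the 6 other libraries. All 3 single cells were above all other libraries, and the log2 fold change was 0.45 (SE 0.06, adjusted p 0.0131, edgeR). PEAK1, a pseudokinase of the cytoskeleton, had 199, 224 and 304 CPM in the single cells, compared with 163, 166 and 198 CPM. Its lowest single cell lay just above the highest other library, a library of 10 cells (log2 fold change 0.48, SE 0.12, adjusted p 0.0396, edgeR). SH3GL3, an endophilin gene, had 53.6, 57.2 and 50.6 CPM, compared with 33.1 to 40.1 CPM (log2 fold change 0.50, SE 0.12, adjusted p 0.0362, edgeR). DET1, of a ubiquitin ligase complex, had 22.8, 23.8 and 47.3 CPM, compared with 14.5 to 18.9 CPM, and Single Cell Rep 3 was highest (log2 fold change 0.92, SE 0.24, adjusted p 0.0419, edgeR).

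Of the members that fell, 7 were well expressed. TPM1 had 306, 374 and 425 CPM in the single cells and 516, 595 and 617 CPM as the lowest, median and highest of the other libraries, a log2 fold change of -0.65 (SE 0.10, adjusted p 0.0143, edgeR). PTPN9, a tyrosine phosphatase gene, had 90.4, 97.0 and 108 CPM, compared with 130, 141 and 162 CPM (log2 fold change -0.53, SE 0.09, adjusted p 0.0185, edgeR). MRPL46, a mitochondrial ribosomal protein gene, had 41.3, 47.0 and 47.9 CPM, compared with 58.9, 68.4 and 72.6 CPM (log2 fold change -0.56, SE 0.12, adjusted p 0.0249, edgeR). The groups did not overlap for any of these genes, which were chosen by the test on the same libraries. WDR61, a subunit of the SKI complex of RNA decay, had 44.8, 34.7 and 54.3 CPM in the single cells and 59.0 to 76.0 CPM in the others (log2 fold change -0.65). RAB8B, a small GTPase of vesicle traffic, had 46.4, 49.9 and 68.2 CPM, compared with 75.2 to 82.1 CPM (-0.52), and OAZ2, an antizyme that limits polyamine synthesis, had 64.1, 55.1 and 46.2 CPM, compared with 74.7 to 85.1 CPM (-0.51). ANP32A had 370, 326 and 406 CPM in the single cells, compared with 432, 446 and 460 CPM, a log2 fold change of -0.28 that was smaller than that of TPM1.

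The other 3 members that fell were close to the limit of expression. CILP, a cartilage matrix protein gene, had 0 counts in all 3 single cells and 0.228, 0.581 and 4.24 CPM in the other libraries. Its mean of 1.22 CPM, which put it among the members, was 0.613 CPM without 10 Cell Rep 1, so CILP passed the limit only through that library, and its lower level in single cells is given as a description. CORO2B, a coronin gene, had 0.193, 0 and 0.0383 CPM in the single cells and 1.28 to 2.49 CPM in the others. LINC00597, whose promoter is printed above, had 0.637, 0.549 and 0.0192 CPM in the single cells and 3.43, 4.88 and 5.60 CPM in the others (log2 fold change -3.52, SE 0.90, adjusted p 0.0411, edgeR). The lowest value of LINC00597 was that of Single Cell Rep 3. CORO2B and LINC00597 were under 1 CPM in every single cell and are members only through the libraries of more cells. Their lower level is likewise a description, and the test of LINC00597 is not independent of that choice.

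**Figure D5:**
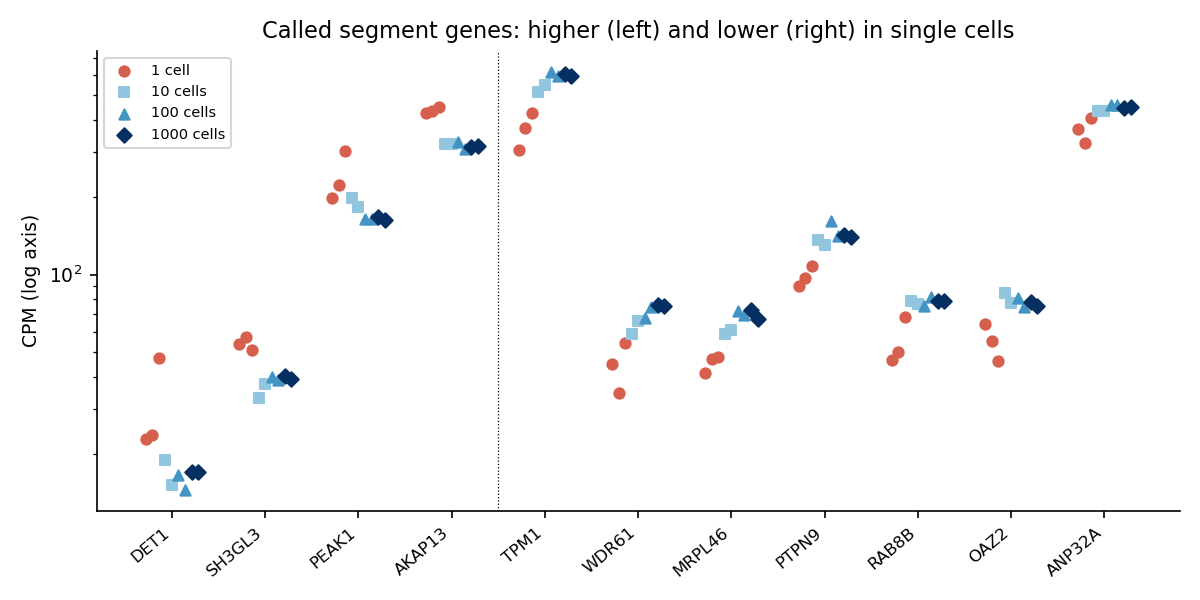
CPM (log axis) in each of the 9 libraries for the 4 segment genes that were higher and the 7 well expressed ones that were lower in single cells (circles) than in 10 (squares), 100 (triangles) and 1000 cells (diamonds). For each gene the single cells lie wholly above or wholly below the other libraries, for example 425 to 450 CPM against 308 to 329 CPM for AKAP13. The genes were chosen by the test on these same libraries, so the separation is no further evidence.

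By function, 132 members fell into 11 lists of 149 genes, and 3 of them were higher and 8 lower. The lower ones include CORO2B, a member only through the libraries of more cells. The shares called over all genes, given above, are the background for these counts. Of the 8 members for ribosomes and translation, MRPL46 fell and none rose, and their median level was 116 TPM. Its mitochondrial partner MRPS11, which starts next to it on the other strand, had 88.2, 61.6 and 60.9 CPM in the single cells and 73.1, 91.0 and 94.8 CPM in the others (adjusted p 0.236, edgeR). Of the 18 genes of metabolism, with a median of 73.8 TPM, OAZ2 fell. The fatty acid elongation gene HACD3 had 499, 431 and 389 CPM in the single cells, around the 418 to 478 CPM of the others. None of the 10 genes of the cell cycle, replication and DNA repair (median 94.2 TPM) was called in either direction by edgeR.

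Within the cell cycle list, the single cells differed among themselves. KIF23, a kinesin of cytokinesis, had 217, 249 and 402 CPM in the single cells and 288, 309 and 322 CPM in the others. TIPIN, which stabilises replication forks, had 49.2, 139 and 49.7 CPM in the single cells and 68.5, 78.9 and 86.1 CPM in the others. FANCI, of the crosslink repair pathway, had 316, 444 and 280 CPM, also highest in Single Cell Rep 2, whereas KIF23 and PIF1 were highest in Single Cell Rep 3. KIAA0101, which encodes a PCNA-binding factor, had 89.2, 115 and 125 CPM, near the 98.7 to 141 CPM of the others.

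Of the 14 kinase and signalling genes, AKAP13 and PEAK1 rose and PTPN9 fell. MAP2K1, the MEK1 kinase of the MAPK pathway, had 107, 116 and 126 CPM in the single cells, next to 103, 112 and 124 CPM in the others. CSK, which inhibits Src kinases, had 215, 146 and 110 CPM, and the SUMO ligase gene PIAS1 78.6, 75.3 and 155 CPM, each with at least 1 single cell outside the range of the others. DET1 rose among the 14 genes of the proteasome and ubiquitin transfer, where PSMA4 had 260, 302 and 266 CPM in the single cells, within 247 to 320 CPM, and the ligase gene ARIH1 185, 135 and 176 CPM, compared with 180 to 212 CPM (adjusted p 0.126, edgeR). Of the 19 secretory, endosomal and lysosomal genes RAB8B fell, and PPIB had 637, 543 and 552 CPM, compared with 562, 638 and 668 CPM. The recycling GTPase gene RAB11A had 227, 245 and 183 CPM, compared with 236 to 271 CPM (adjusted p 0.167, edgeR).

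The 18 genes of the cytoskeleton, adhesion and matrix had a median of 17.8 TPM and a median SD among single cells of 0.531, and 3 of them had 0 counts in at least 1 single cell. TPM1 fell, and the lower level of CORO2B is a description, as said above. UACA, a coiled-coil protein gene, had 156, 230 and 349 CPM in the single cells and 318, 332 and 390 CPM in the others (adjusted p 0.128, edgeR), and CD276, the checkpoint ligand B7-H3, had 163, 205 and 124 CPM around 140 to 185 CPM. Of the 16 genes of transcription and chromatin ANP32A fell, and SIN3A, a corepressor scaffold, had 347, 448 and 447 CPM compared with 350, 370 and 379 CPM (adjusted p 0.233, edgeR). WDR61 fell among the 8 genes of RNA processing, where the decapping gene EDC3 had 128, 171 and 84.7 CPM around 97.4 to 124 CPM.

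None of the 4 small RNAs and 3 receptor or channel genes passed the test. SNORD16, SNORD18A and SNORD18C lie within RPL4, their host gene. SNORD16 had 5.56, 7.11 and 15.2 CPM in the single cells and 6.41 to 10.4 CPM in the others, SNORD18A had 0.463, 0.470 and 0.977 CPM compared with 1.02 to 2.21 CPM, and SNORD18C was found only in Single Cell Rep 2 of the single cells (1.76 CPM). RPL4 itself had 1893, 2323 and 2208 CPM, compared with 2163, 2231 and 2319 CPM. CHRNA5, a nicotinic receptor subunit gene, had 45.7, 41.1 and 43.0 CPM in the single cells and 28.9, 29.8 and 35.1 CPM in the others, and all single cells were above all other libraries, with a log2 fold change of 0.47 (SE 0.13) that missed the threshold (adjusted p 0.0558, edgeR). Its neighbour CHRNA3, which overlaps it on the opposite strand, had a range of 2.91 to 5.31 CPM in the larger libraries.

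No member differed between 10 and 1000 cells or between 100 and 1000 cells at an adjusted p under 0.05 in edgeR's quasi-likelihood test. For 10 against 1000 cells, 13 members were higher and 25 lower in 10 cells at an unadjusted p under 0.05, together 18.8% of the members. Of the 13370 genes, 6.15% were higher and 5.94% lower, together 12.1%, and on the rest of the chromosome both directions made 14.7%. DESeq2 called 9 members and 196 genes in all. The members called numbered 60 without 10 Cell Rep 1, where 4156 genes were called in all, and 78 without 10 Cell Rep 2, where 4721 were. For 100 against 1000 cells, only UBE2Q2P1, a pseudogene, passed an unadjusted p of 0.05 (log2 fold change 0.40, SE 0.16, unadjusted p 0.0389, adjusted p 0.952, edgeR), where 1.09% of genes were higher and 0.95% lower, and DESeq2 called 0. Without 100 Cell Rep 2, 64 members and 4951 genes in all were called.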

How the data were processed

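The deposited values were raw read counts per gene for 9 libraries. Per the labels and file headers, the authors used Trim Galore 0.6.7 for trimming, with FastQC 0.11.9 for quality control, HISAT2 2.2.1 for alignment (hg38), SAMtools 1.16.1 for sorting, and featureCounts from Subread 2.0.6 over exons (strand setting 2) for counting. Single reads were counted, without molecular identifiers, and reads that map to several places were left out. The annotation release is not given in the sources used here. Totals were 42842970 to 61645865 counts.

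Counts were analysed in R 4.3.3 with edgeR 4.0.16 (TMM, filterByExpr, quasi-likelihood test, Benjamini-Hochberg adjustment over all genes tested, two-sided, adjusted p under 0.05), with DESeq2 1.42.0 as an alternative. CPM in the text were scaled by TMM, except for the choice of members, which used raw totals. TPM were computed from counts and exon lengths. Gene types were taken from RefSeq by symbol (198 of 202 members matched). The fit was tested on data simulated from these libraries with 200 changed genes. Alternatives covered normalization, tool, filters, limits, borders, depth, replicate number and each library left out.

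The members, lists and tests were chosen with earlier results of these data known. Named were members called in each direction, the 10 highest in TPM, the 10 most and 5 least variable of at least 10 CPM, those at 0 in every single cell, those next to a border or the limit, and up to 4 of each list. Genes that fell outside this rule are said to be so.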

Additional observations from a re-analysis of the deposited data

How the results depend on the processing

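The difference in median log2 TPM between segment and other chromosome 15 genes was positive under every alternative tried. It was 0.646 in CPM, 1.11 in single cells and 1.08 with a limit of 0.1 CPM, and lay between 1.26 and 1.31 when each library was left out. The difference in median SD among single cells (-0.152) was -0.0629 with a limit of 10 CPM and ran from -0.125 to -0.0691 without each single cell. The median shift of Single Cell Rep 3 (-0.0804) was -0.121 with raw library totals and -0.0217 with a limit of 10 CPM. Protein-coding genes alone gave 1.24 and -0.17, and adding the 7 genes with coordinates on alternate contigs gave 1.24 and -0.142. These last alternatives were chosen after seeing the data.

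For single cells against the other libraries, the 4 higher and 10 lower members became 20 and 18 with DESeq2 and 2 and 7 with no filter on low counts. Over all genes, the 347 higher and 694 lower calls became 1258 and 1865 with DESeq2 and 247 and 435 with no filter. The members called became 0 and 0 with a separate mean for each of the 4 cell numbers, as did the calls over all genes. Leaving out each library gave 0 to 20 higher and 0 to 25 lower members, and 0 to 1365 higher and 0 to 1823 lower genes in all. Between 10 and 1000 cells, the 0 calls became 9 with DESeq2, 6 with no filter and 0 to 78 without each library, and between 100 and 1000 cells 0 to 64 without each library. The cause of these changes was not tested. Where an arm was left with 1 library, it was assumed to vary like the others.

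With the replicate number as a replicate block, 9 members were higher and 19 lower for single cells, of 790 and 1287 genes in all. The block gave 4 members (55 genes in all) for 10 against 1000 cells and 0 (20 in all) for 100 against 1000 cells. Same-numbered libraries did not deviate together (correlations of -0.0868 to 0.017), so they share only a number.

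With 2 or 3 libraries per cell number, the precision of every spread is low.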
